A study of Mus musculus with 8 samples.

Results

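T lymphocytes that sit between the epithelial cells of the gut leave their RNA in preparations of epithelium. Their genes were followed here through 10 members, the CD3 chains Cd3e and Cd3g, the co-receptor chains Cd8a and Cd8b1, the kinase Lck, the integrin chain Itgae, the surface protein Cd7, the granzymes Gzma and Gzmb, and the leukocyte phosphatase Ptprc. They were taken by symbol from 40178 genes over the ileum and colon count tables. The samples were EDTA fractions of ileum or colon from mice aged 8 weeks, and each mouse gave 1 library of each tissue. All mice carried Vil1Cre, which drives Cre in the epithelium. WT mice had DDX5(+/+) alleles and DDX5KO mice had DDX5(fl/fl) alleles, with 2 mice of each genotype and 8 libraries in all.

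CD3 chains carry the signal of the T cell receptor, CD8 and LCK act beside it, and ITGAE pairs with a beta chain to bind E-cadherin on epithelial cells. Granzymes A and B are proteases of cytotoxic granules, and the phosphatase encoded by Ptprc, known as CD45, is found on all leukocytes. RNA of Ptprc has also been described in a subset of tuft cells, the chemosensory cells of the epithelium.

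Ddx5 served as a check of the genotype labels. Its level was 700.5 and 700.3 CPM (counts scaled to library size) in WT ileum 1 and 2, and 339.8 and 326 CPM in DDX5KO ileum 1 and 2. In colon it was 771 and 706 CPM in WT against 367 and 355 CPM in DDX5KO. Each DDX5KO library lay below each WT library, so the labels and the counts of Ddx5 matched in all 8.

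Among the colon samples 1 library stood apart before any test. The 10 members together held 181 counts in DDX5KO colon 1, against 559 in DDX5KO colon 2. Scaled to library size these were 9.99 and 25.5 CPM, below 61.0 and 44.6 CPM in WT colon 1 and 2. Counts of 5 for Gzma and 3 for Gzmb in DDX5KO colon 1 stood against 60 and 48 in DDX5KO colon 2. The ratio of DDX5KO colon 2 to DDX5KO colon 1 was 9.91 for Gzma, with an exact 95% interval of 4.02 to 31.6. For Itgae the same ratio was 1.12, with an interval of 0.716 to 1.78. These intervals, and all others given for ratios and shares of counts, cover counting error only and not the spread between mice. The spread inside the DDX5KO colon group was therefore wide for granzymes and narrow for Itgae, and colon results of members and lymphocyte lists are given with and without this library. In the ileum, DDX5KO ileum 2 held many more counts on Gm10800, Gm10801 and Gm21738, which are repeat-like genes, and calls in ileum are also given without those genes.

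Members differed widely in level. Per kilobase of exon and averaged over the 8 libraries, Gzma was highest at 14.0 CPM. Gzmb followed at 4.52, Cd7 at 2.17 and Ptprc at 1.75 CPM per kilobase. Itgae (0.996), Lck (0.877) and Cd8a (0.805) lay in the middle. Cd3g (0.498), Cd8b1 (0.317) and Cd3e (0.258) were lowest. The order differed by group, and in WT colon Lck (1.39) lay above Ptprc (1.15). Cd8b1 had 56 counts over all libraries, too few to pass the expression filter in any comparison of 4 libraries. All members together made up between 0.00107% and 0.0111% of the counts of a library.

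**Figure D1:**
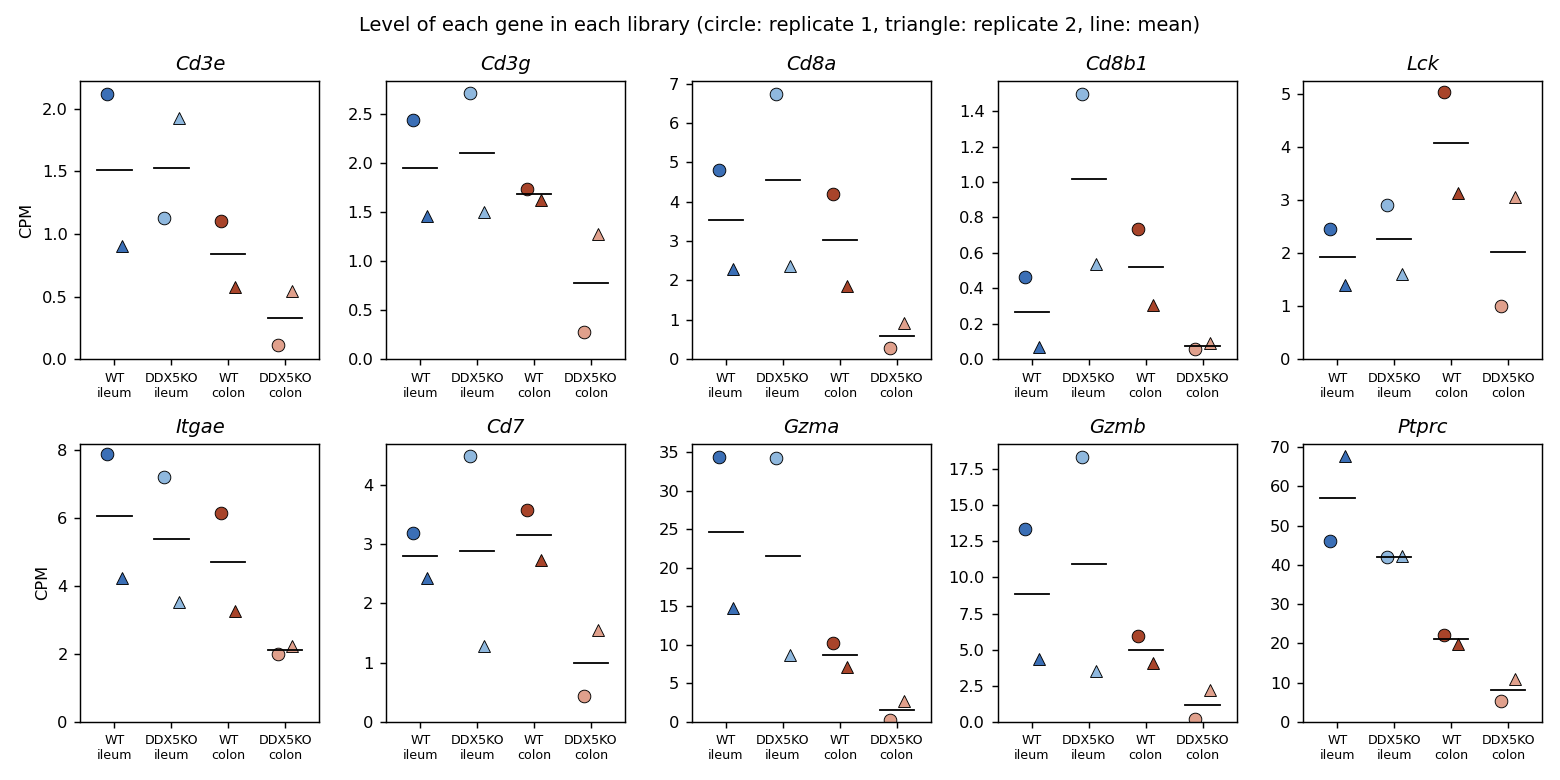
CPM of each of the 10 genes in each of the 8 libraries. Gzma spanned 0.276 CPM in DDX5KO colon 1 to 34.4 CPM in WT ileum 1.

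The genes lie apart on the genome for the most part. Cd8b1 (chr6:71322788-71337494, plus strand) and Cd8a (chr6:71373427-71379173, plus strand) are neighbours in GRCm38, as are Cd3g (chr9:44969572-44980431, minus strand) and Cd3e (chr9:44998740-45009627, minus strand). Exons of Cd3e overlapped Gm48719 on the other strand over 135 bases. Exons of Cd7 overlapped Gm11775 on the other strand over 122 bases, and those of Lck overlapped Mir8119 on the same strand over 25 bases. Of the 50-base words in transcripts of Cd8b1, 6.0% also occurred in another gene, chiefly Gabpb2. The share was 0.0431% for Ptprc and 0 for the other 8 members, so reads of nearly all members could be placed on a single gene.

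Promoters of 300 bases, from 250 before the start to 50 after it, were taken from RefSeq entries on GRCm38.p6 for 7 of the 10 members, all but Cd8b1, Cd7 and Itgae. Letters known to be bound by families of factors active in T cells were searched on both strands. The RUNX letters TGTGGT occurred in 3 of the 7 members (Lck, Gzma, Gzmb), and in 16.8% of all 32851 promoters. A member counts as holding a match if any of its entries does, and the 7 members had 9 entries, while the share is taken over single promoters. The second entry of Lck held no RUNX letters. ETS letters AGGAAG occurred in 3 members (Ptprc, Lck, Cd3e) and in 35.4% of all promoters. T-box letters AGGTGT occurred in 3 members (Cd3g, Cd3e, Gzma) and in 13.7% of all promoters. AP-1 letters TGANTCA occurred in 1 member, Gzmb, and in 7.81% of all promoters. The cyclic AMP response letters TGACGTCA occurred in 0 members and in 1.79% of all promoters. A match is a description of the letters, not a site or a cause. The promoters that held RUNX letters, and that of Cd3e for contrast, are shown in lower case with matches to RUNX and ETS letters of either strand in capitals, so that their places can be seen. They are Gzma at chr13:113100932-113101231, Gzmb at chr14:56262285-56262584, Lck at chr4:129573592-129573891 and Cd3e at chr9:45009562-45009861, all on the minus strand and written in the direction of transcription.
Gzma: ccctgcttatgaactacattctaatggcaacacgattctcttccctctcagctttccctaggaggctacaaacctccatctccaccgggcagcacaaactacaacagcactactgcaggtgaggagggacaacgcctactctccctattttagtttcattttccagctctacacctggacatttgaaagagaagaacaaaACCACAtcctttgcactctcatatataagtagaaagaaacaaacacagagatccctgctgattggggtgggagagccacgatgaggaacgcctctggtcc
Gzmb: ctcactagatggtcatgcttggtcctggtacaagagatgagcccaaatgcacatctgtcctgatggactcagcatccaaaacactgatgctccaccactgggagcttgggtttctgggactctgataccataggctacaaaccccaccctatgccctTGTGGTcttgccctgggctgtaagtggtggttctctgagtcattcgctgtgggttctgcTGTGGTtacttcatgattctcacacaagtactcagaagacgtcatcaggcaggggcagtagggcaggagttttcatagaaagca
Lck: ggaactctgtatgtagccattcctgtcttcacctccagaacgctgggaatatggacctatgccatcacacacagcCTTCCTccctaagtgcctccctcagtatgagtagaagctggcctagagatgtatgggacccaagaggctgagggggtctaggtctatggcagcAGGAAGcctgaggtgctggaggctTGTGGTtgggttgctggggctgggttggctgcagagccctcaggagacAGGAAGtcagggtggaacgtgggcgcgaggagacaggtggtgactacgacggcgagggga
Cd3e: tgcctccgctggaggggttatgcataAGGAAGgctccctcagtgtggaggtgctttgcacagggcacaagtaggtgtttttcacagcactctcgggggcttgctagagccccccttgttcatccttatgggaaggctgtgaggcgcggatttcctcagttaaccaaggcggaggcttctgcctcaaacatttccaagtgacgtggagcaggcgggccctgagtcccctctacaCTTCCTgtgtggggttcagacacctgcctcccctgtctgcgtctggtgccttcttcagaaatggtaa
The RUNX letters began 50 bases before the start in Gzma, on the opposite strand. In Gzmb they began 93 and 34 bases before the start, and in Lck 58 bases before it.

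In the colon, levels of the T cell receptor genes were small in every group. Cd3e was 1.10 and 0.572 CPM in WT colon 1 and 2, and 0.110 and 0.547 CPM in DDX5KO colon 1 and 2. Cd3g was 1.73 and 1.63 CPM in WT, against 0.276 and 1.28 CPM in DDX5KO. For Lck the values were 5.04 and 3.13 CPM in WT and 0.993 and 3.05 CPM in DDX5KO. In these 3 genes the second DDX5KO library came close to the lower WT library. Cd8a, whose chain defines the co-receptor of cytotoxic T cells, separated more clearly, with 4.20 and 1.85 CPM in WT against 0.276 and 0.912 CPM in DDX5KO. Counts of Cd8b1 were 14 and 7 in WT and 1 and 2 in DDX5KO.

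Itgae was 6.15 and 3.26 CPM in WT colon and 1.99 and 2.23 CPM in DDX5KO colon. Cd7 was 3.57 and 2.73 CPM in WT and 0.442 and 1.55 CPM in DDX5KO. Granzyme levels were 10.3 and 7.17 CPM for Gzma in WT colon, against 0.276 and 2.73 CPM in DDX5KO colon. Gzmb was 5.94 and 4.05 CPM in WT and 0.166 and 2.19 CPM in DDX5KO. Ptprc, the most counted member, was 22.2 and 19.9 CPM in WT and 5.41 and 10.9 CPM in DDX5KO. WT and DDX5KO values did not overlap for any member.

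The edgeR quasi-likelihood test with Benjamini-Hochberg adjustment called 0 of 15362 genes (0%) in the colon at an adjusted p below 0.05. At an unadjusted p below 0.05 it gave 1836 genes, and DESeq2 called 118. Of the 9 members tested, edgeR called 0, with 6 at an unadjusted p below 0.05, and DESeq2 called 1, Ptprc. The log2 fold changes of DDX5KO over WT were negative for all 9. Both DDX5KO libraries lay below both WT libraries in all 9, as they did in 20.7% of all genes tested. The criterion of the study, an unadjusted p below 0.05 with a log2 fold change of at least 0.5, was met in the lower direction by 6 of 9 members and by 3.67% of all genes with p from edgeR. The study used DESeq2, and with p from DESeq2 it was met by 4 members (Cd7, Cd8a, Gzma, Ptprc) and 1.14% of 28349 genes. Counts of list genes by this criterion use p from edgeR. Members met these rules more often than genes at large, while no single member passed the adjusted test in edgeR. The members were chosen with earlier results of these data known, so these shares describe them and do not test them as a group. Genes with few counts can also pass the filter by being high in WT colon. With members picked by their counts in ileum instead, all 9 values in colon were negative, with a median of −1.44. Since members vary together between libraries, their number does not count as so many separate observations.

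Among the 9 members tested, fold changes were largest for granzymes and Cd8a. Gzma had a log2 fold change of −2.69 (95% interval −4.74 to −0.64), with an adjusted p of 0.339. It ranged from 0.323 to 0.689 over the alternatives that kept all libraries, which is what a range of adjusted p means here unless a library is said to be left out, and from 5.5e-17 to 0.986 with a library left out. For Cd8a it was −2.22 (−3.97 to −0.47), with an adjusted p of 0.340 (range 0.281 to 0.533, and 1.7e-06 to 0.986 with a library left out). Gzmb gave −2.23 (−4.42 to −0.05) and Cd7 −1.70 (−3.11 to −0.29). Cd3e, Cd3g, Itgae and Lck lay between −1.27 and −1.06, roughly a fold of 2. The interval of Ptprc was the narrowest, −2.20 to −0.67, and DESeq2 placed it at an adjusted p of 0.00421 (range up to 0.391). An exact permutation of 2 against 2 libraries cannot give a p below 0.333, so group separation alone carries little weight for a single gene.

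**Figure D2:**
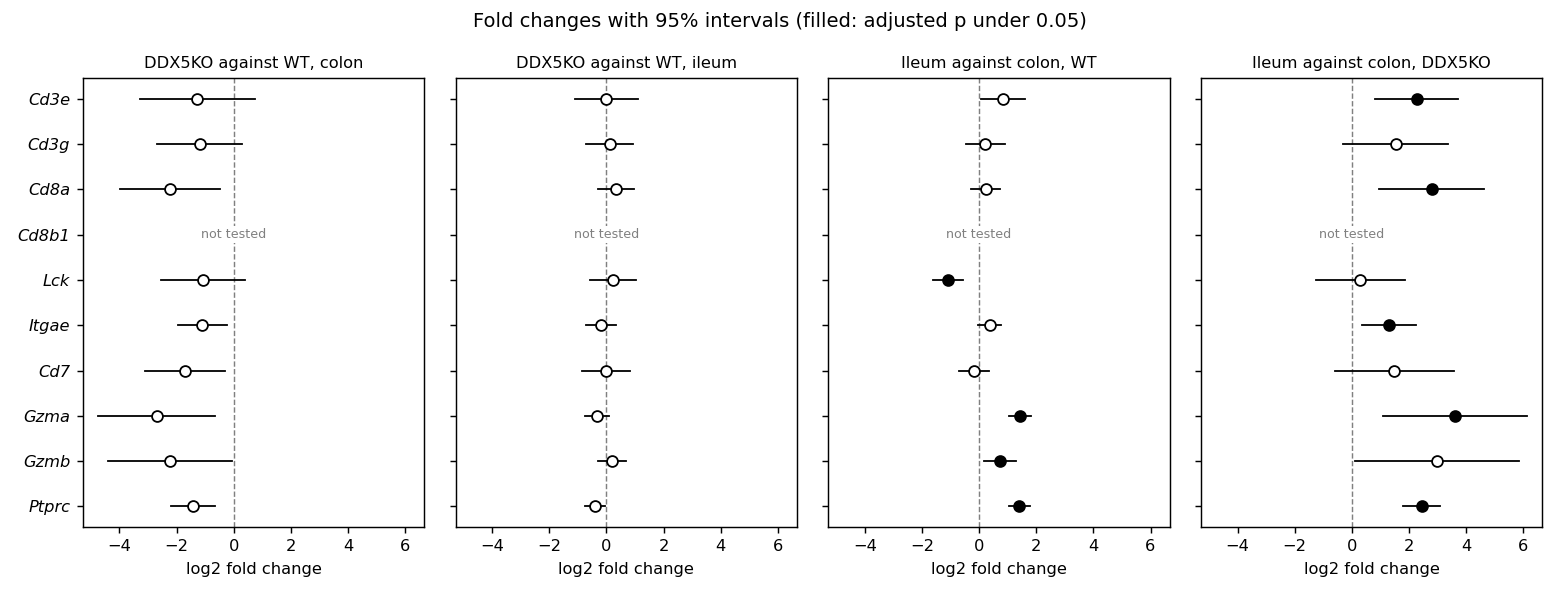
Log2 fold changes of the members with 95% intervals in 4 comparisons. In colon, Gzma lay at −2.69 for DDX5KO over WT, and in ileum at −0.32.

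Leaving out libraries showed how far the colon result hung on DDX5KO colon 1. Without it, log2 fold changes were −1.71 for Cd8a, −1.68 for Gzma, −1.19 for Gzmb, −1.07 for Itgae and −0.96 for Ptprc. Lck (−0.42), Cd3g (−0.41) and Cd3e (−0.59) stayed negative in that fit. Leaving out DDX5KO colon 2 instead put Gzma at −4.96. Without WT colon 1 or WT colon 2, edgeR called 0 genes, with 711 and 791 at an unadjusted p below 0.05. These fits hold 3 libraries, and the group with a single sample is taken to vary like the other. Counts of calls from them, given further on with the processing, are therefore weaker evidence than their size implies. The direction held for every member in every fit, and the size for granzymes depended on the library kept.

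**Figure D3:**
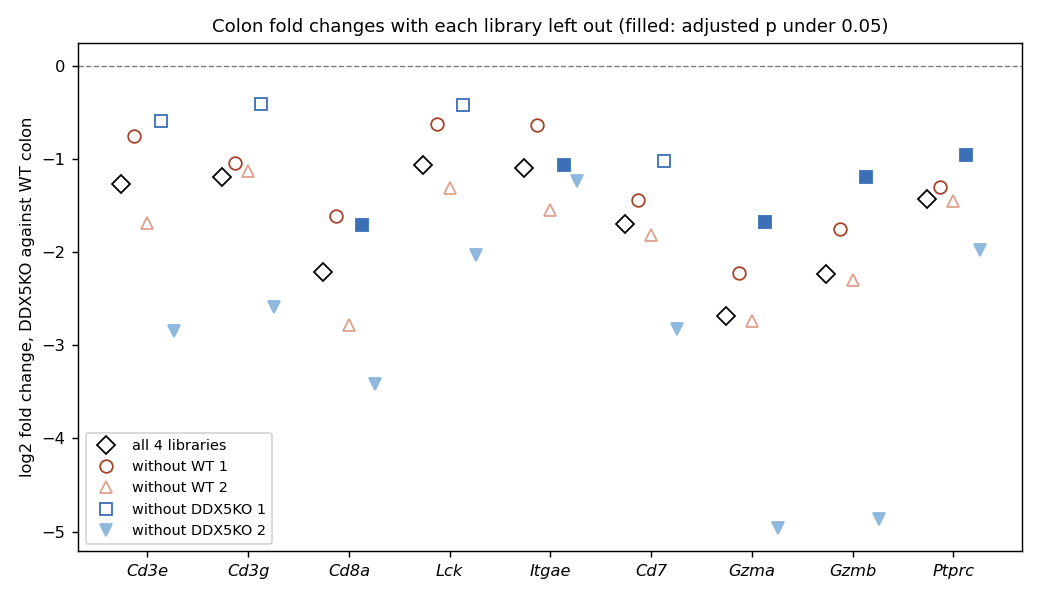
Log2 fold changes of the members in the colon with each library left out in turn. Gzma ranged from −4.96 without DDX5KO colon 2 to −1.68 without DDX5KO colon 1.

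Libraries were also set against each other by replicate number. In replicate 1 the log2 ratio of DDX5KO to WT colon, with 0.5 CPM added, was −3.80 for Gzma and −1.94 for Ptprc. In replicate 2 it was −1.25 for Gzma and −0.84 for Ptprc. Cd3e and Lck were at −0.03 in replicate 2, so by this pairing their differences lay in replicate 1. The number is only taken to mark pairs of mice. Against both WT libraries, DDX5KO colon 2 gave log2 fold changes of −0.59 for Cd3e and −0.42 for Lck. Summed over members, WT colon exceeded DDX5KO colon 2.98-fold in CPM, 6.10-fold in replicate 1 and 1.75-fold in replicate 2. Per 1000 counts on epithelial markers, the members gave 4.43 and 3.33 in WT colon and 0.654 and 1.83 in DDX5KO colon, so scaling to epithelium left the gap in place.

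Wider lists of lymphocyte genes were lower in DDX5KO colon as well. Of 16 genes of the T cell receptor and T cell surface, 10 were tested, the median log2 fold change was −1.85, and 5 met the lower criterion of the study. Cd247 (−2.33), Thy1 (−2.30) and Cd3d (−1.99) were among the latter. Cd6 had 0 counts in DDX5KO colon against 33 in WT, at least 10.6-fold lower if 3 counts are granted. Of 18 receptor signalling genes, 13 were tested, the median was −1.43, and 9 met the criterion, with Zap70 at −1.97 and Lat at −1.82. Of 19 cytotoxic granule and NK-type receptor genes, 12 were tested, the median was −1.26 and 5 met it. Ccl5 was at −2.41 and Nkg7 at −2.25, while Jaml, highest in that list by CPM, was at −0.55 and Gzmm at −0.13. For 26 homing, residency and transcription factor genes, 14 were tested with a median of −1.35, and 8 met the lower criterion. Among these were Cxcr6 (−2.19) and Ikzf1 (−2.15). Id3, with 48.0% of the CPM of that list over all 8 libraries, was at 0.11, the only positive value. Gpr55 (−0.45), Id2 (−0.42), P2rx7 (−0.15) and Ahr (−0.14) lay nearer to the median of all genes. Over all genes the median was 0.00 and 3.67% met the lower criterion, and 0 genes of these lists had an adjusted p below 0.05 in edgeR. Genes with so few counts pass the filter in part by being high in WT colon, which can push such medians down. Among genes picked by their counts in ileum instead, the colon medians were −1.36 (7 genes), −1.45 (15), −1.32 (8) and −1.14 (14) in the order given, and −0.01 for all genes. Summed with no filter, the 16 receptor genes gave 15.5 and 9.16 CPM in WT colon and 1.66 and 5.10 CPM in DDX5KO colon. Vav1 held 36.0% of the CPM of the signalling list over all 8 libraries. Signalling genes gave 41.7 and 32.2 CPM in WT and 11.4 and 19.6 CPM in DDX5KO. For cytotoxic genes these were 26.9 and 17.9 CPM against 5.91 and 11.6 CPM. The gap was smaller for homing genes, with 159 and 163 CPM in WT against 120 and 147 CPM in DDX5KO. Without DDX5KO colon 1 the medians of these lists shrank to −1.36, −0.98, −0.77 and −0.87 in the order given. The lower level in DDX5KO colon was thus seen in the medians of these lists and was not confined to granzymes. Some genes of the lists hardly differed.

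Leukocytes at large were followed with 10 genes, of which 9 were tested in colon, with a median of −1.28 (−0.78 without DDX5KO colon 1) and 3 meeting the lower criterion. Cd53 lay at −2.41, while Ptpn6 (−0.05) and Cytip (0.02) lay near the median of all genes. Epithelial ligands and cytokines that act on these lymphocytes gave another result, with 16 of 16 genes tested, a median of −0.10 and 0 meeting the lower criterion. Within that list H2-T10 was at −1.14, H2-T3 at −0.87, H2-T22 at −0.44 and Il18 at 0.39, while Il15, for IL-15, was at 0.16 and Cdh1, for E-cadherin, at 0.23. The ligand list as a whole thus lay near the median of all genes, although H2-T10 lay as low as some members. Epithelial markers had a median of 0.11 over 10 genes, and 1 of them, Cdx2 (−0.54), met the lower criterion. Whether fewer lymphocytes or less RNA in each lymphocyte gave the lower levels cannot be told apart in bulk samples. Whether yield of lymphocytes in the EDTA fraction differed between mice was not tested.

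**Figure D4:**
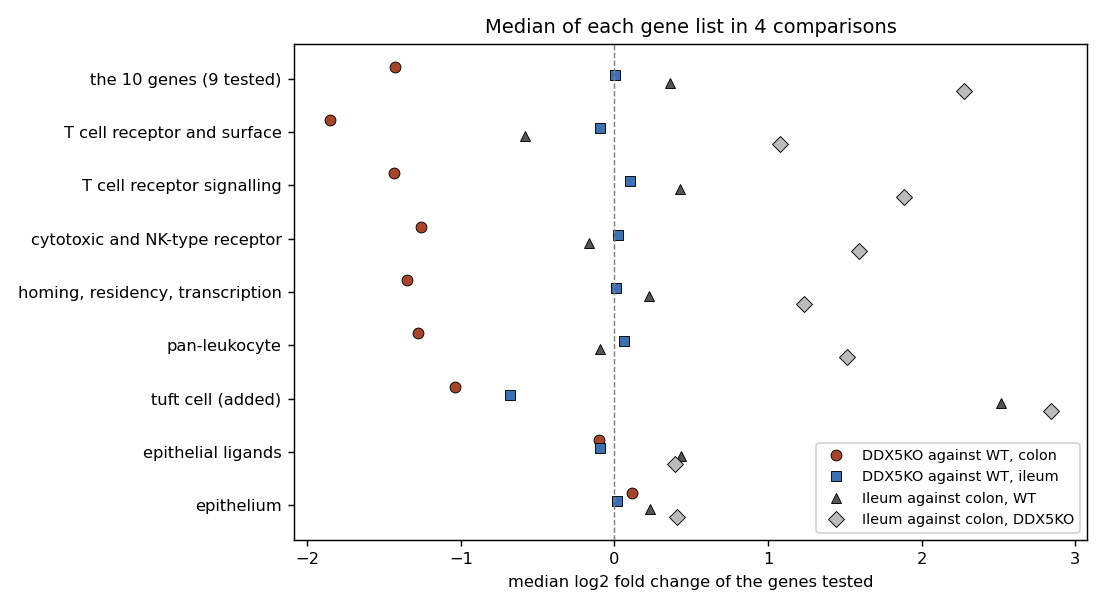
Median log2 fold change of each gene list in 4 comparisons. In colon, DDX5KO over WT, the T cell receptor list lay at −1.85 and the epithelium list at 0.11.

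Cell types other than tuft cells, which are taken up further on, were followed with marker lists in the colon. B cell markers (8 genes, Cd79b highest) summed to 0.473 and 0.220 CPM in WT and 0.276 and 0.501 CPM in DDX5KO, and 0 were tested. Plasma cell markers (6 genes, Igha highest) summed to 1.68 and 1.41 CPM in WT and 2.37 and 7.70 CPM in DDX5KO, with Igha at 1.61 (adjusted p 0.408). Macrophage and dendritic markers (12 genes, Cd14 highest) summed to 36.5 and 33.1 CPM in WT and 23.4 and 31.7 CPM in DDX5KO, with 4 tested and a median of −0.28. Cd14 made up 70.1% of the macrophage CPM over all 8 libraries, and differences between lists were not tested. Neutrophil markers (6 genes) summed to 24.8 and 26.1 CPM in WT and 47.7 and 23.7 CPM in DDX5KO, nearly all of it Ly6g (0.39), while Csf3r had 0 counts in colon, so this sum rested on a single gene. Mast cell markers (6 genes, Mcpt1 highest) summed to 2.05 and 2.38 CPM in WT and 9.0 and 0.820 CPM in DDX5KO. Among innate lymphoid and helper markers (8 genes), Il1rl1 had 3 and 1 counts in WT colon and 3 and 4 in DDX5KO colon. Stromal markers (10 genes, Col3a1 highest) summed to 10.8 and 15.2 CPM in WT and 14.3 and 6.24 CPM in DDX5KO, with 5 tested and a median of −0.74. Stroma was thus spread within DDX5KO colon in the opposite order to the members, and its part in the result was not tested.

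In the ileum all members but Ptprc, lower in DDX5KO, and Cd8b1, higher in DDX5KO, overlapped between genotypes. How often genes at large fail to overlap in ileum was not counted, so nothing is read from the separation of these members. Counts of Cd8b1 were 10 and 1 in WT and 16 and 5 in DDX5KO, and both DDX5KO libraries lay above both WT libraries in CPM. Gzma was 34.4 and 14.8 CPM in WT ileum 1 and 2, and 34.3 and 8.67 CPM in DDX5KO ileum 1 and 2. Gzmb was 13.3 and 4.37 CPM in WT and 18.4 and 3.53 CPM in DDX5KO. Cd8a was 4.80 and 2.29 CPM in WT and 6.75 and 2.36 CPM in DDX5KO. For granzymes and Cd8a, replicate 1 was the higher library in each genotype, and the spread between mice exceeded the difference between genotypes. Ptprc behaved otherwise, with 46.2 and 67.8 CPM in WT and 42.0 and 42.2 CPM in DDX5KO. The ratio of WT ileum 1 to 2 was 2.33 for Gzma (exact 95% interval 2.00 to 2.73) and 0.682 for Ptprc (0.623 to 0.745), so the same pair of libraries ranked in opposite order for these genes.

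Of 14068 genes tested in ileum, edgeR called 98 (0.697%), and 0 of the 9 members. Without the repeat-like genes it called 20, and again 0 members. Among members 1, Ptprc, had an unadjusted p below 0.05, out of 1736 genes that did, and DESeq2 called 28 genes and 0 members. By the criterion of the study 0 members were lower, against 3.48% of all genes with p from edgeR and 0.440% of 38649 genes with p from DESeq2. The log2 fold changes ran from −0.41 for Ptprc (95% interval −0.76 to −0.06) to 0.33 for Cd8a (−0.30 to 0.95), with a median of 0.00. For Gzma it was −0.32 (−0.75 to 0.10), and for Cd3e 0.00 (−1.09 to 1.10). The adjusted p of Ptprc was 0.326, with a range of 0.336 to 1.00. These intervals rest on the replicate block, and with a library left out the value reached −1.52 for Gzma and −1.35 for Gzmb without DDX5KO ileum 1, so the size of a difference in ileum depended on the library kept.

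Lists in the ileum had medians near 0. The T cell receptor list lay at −0.09 (7 tested), signalling at 0.10 (15 tested), cytotoxic genes at 0.03 (8 tested) and homing genes at 0.01 (14 tested). Within signalling, Vav1 fell by 0.79 (adjusted p 0.0476), and Fyb, at −0.61, did not pass (adjusted p 0.130). Pan-leukocyte genes had a median of 0.07 (9 tested), ligands −0.09 (16 tested) and epithelium 0.01 (10 tested). Rac2, in the pan-leukocyte list, was at −0.60 (adjusted p 0.141). Lyz2, which Paneth cells also make, lay at 2.18 (adjusted p 0.0894) and Il1rl1 at 0.80 (adjusted p 0.105). Single genes of the lymphocyte lists spread to either side of these medians, from −0.79 for Vav1 to 0.88 for Rasgrp1. Of the leukocyte genes named here only Vav1 passed. Vav1 held 36.0% of the CPM of the signalling list over all 8 libraries. It was among the 10 genes closest to Ptprc of 13558 compared (r = 0.985). Whether its RNA came from lymphocytes was not tested. Without a block for replicate number edgeR called 1 gene in the whole ileum, so calls in this tissue, Vav1 and tuft genes included, rest on that block. Without the repeat-like genes Vav1 was at −0.78 with an adjusted p of 0.0920, and 0 genes of these lists were called by edgeR.

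Tuft cells express several leukocyte genes, so a list of 18 tuft cell genes was drawn up after these values had been seen. In ileum 5 of the 18 fell at an adjusted p below 0.05, Gnat3 (−1.51), Rgs13 (−0.96), Sh2d6 (−0.88), Alox5 (−0.84) and Dclk1 (−0.83), and the median was −0.68. Without the repeat-like genes edgeR called 0 of the 18, with the lowest adjusted p at 0.0580 and a median of −0.67. In colon the median was −1.03 over 17 tested (−0.55 without DDX5KO colon 1), 12 met the lower criterion and 0 passed adjustment, with Trpm5 at −1.05 (adjusted p 0.261). Summed tuft CPM was 644 and 952 in WT ileum, and 437 and 516 in DDX5KO ileum. In colon it was 134 and 143 in WT and 54.4 and 97.0 in DDX5KO. Tuft genes thus had negative medians in each tissue, and the calls in ileum depended on the repeat-like genes. With any ileum library left out, 0 tuft genes were called there by edgeR and the median ranged from −0.90 to −0.40.

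Ptprc tracked tuft genes more closely than it tracked T cell genes. Over the 8 libraries, 2 from each of 4 mice, its log2 CPM correlated with the tuft mean at r = 0.960 and with the mean of the other members at r = 0.769. After the mean of each tissue was removed, these were 0.905 and 0.652. The other 9 members correlated among themselves with a median r of 0.875 after the same step (36 pairs), and with Ptprc at a median of 0.603 (9 pairs). Gzma followed the other members at 0.963 and the tuft mean at 0.510, which is the reverse order. Counts of Ptprc per 1000 tuft counts were 71.7 and 71.2 in WT ileum and 96.1 and 81.7 in DDX5KO ileum. In colon they were 165 and 139 in WT and 99.4 and 112 in DDX5KO. Relative to tuft RNA, Ptprc was thus not lower in DDX5KO ileum, and it stayed lower in DDX5KO colon. The share of Ptprc RNA that came from tuft cells was not tested.

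**Figure D5:**
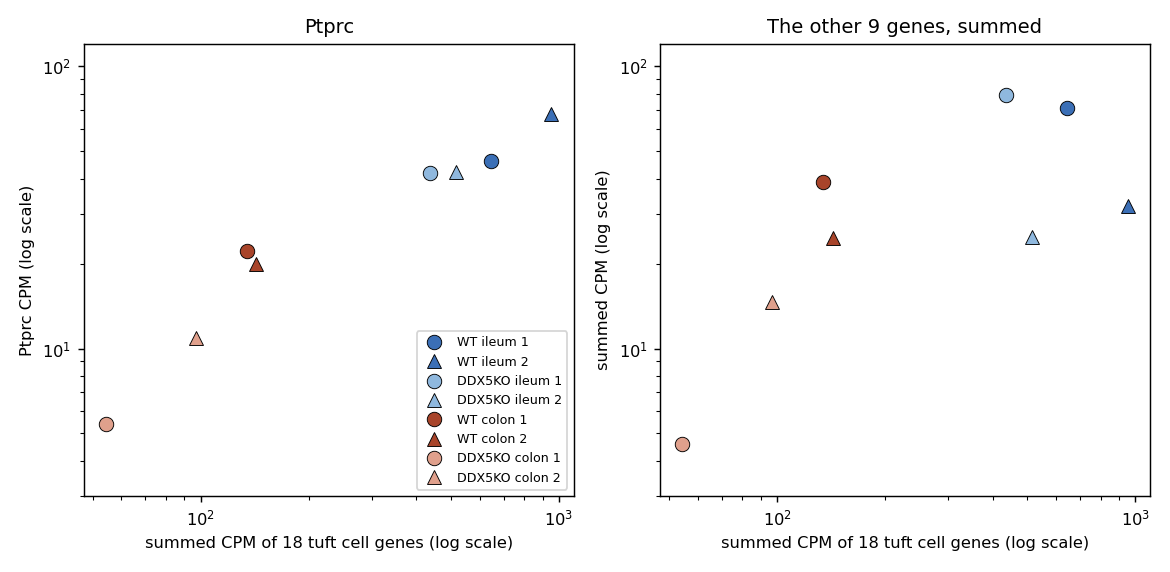
Ptprc, and the sum of the other members, against summed tuft cell markers in the 8 libraries. Ptprc followed the tuft mean at r = 0.960. Gzma alone, which is not drawn, followed the tuft mean at r = 0.803.

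Between tissues of WT mice, Gzma and Ptprc were higher in ileum in both libraries. The edgeR test with mice as blocks called 7391 of 15611 genes (47.3%) and 4 of 9 members, a share close to the background. Gzma rose in ileum by 1.43 (95% interval 1.04 to 1.82, adjusted p 0.000186, range 6.5e-22 to 0.129). Ptprc rose by 1.41 (1.06 to 1.77, adjusted p 0.000114, range up to 0.00328), while per tuft counts its ratio of WT ileum to WT colon went from 2.71 to 0.469. Gzmb rose by 0.73 (adjusted p 0.0370, range up to 0.503). Lck fell by 1.09 (adjusted p 0.00504, range up to 0.165), with 2.45 and 1.39 CPM in WT ileum. Granzymes and Lck, all products of T cells, thus differed between tissues in opposite directions. Both ileum libraries lay above both colon libraries in 2 members, Gzma and Ptprc, and in 35.6% of all genes. The median of members was 0.36, and Cd8a (0.23), Cd3g (0.21) and Cd7 (−0.17) were not called. Ptprc kept its call with every library left out, while Gzmb turned to −0.18 without WT ileum 1. Gzma lost its call without WT colon 2 (adjusted p 0.0973), and Lck without WT colon 1 (adjusted p 0.298).

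Lists are set beside all genes in WT mice, of which 3730 were called up in ileum and 3661 down (47.3% together). Trdc, the constant gene of the delta chain, rose in ileum by 1.17 (adjusted p 0.0342), and Trbc2, of the beta chain, fell by 1.49 (adjusted p 0.0108). Trbc1 was at 0.25, and 44.0% of the 50-base words of Trbc2 also occurred in Trbc1, so reads of this pair were hard to place. Counts were small, 36 and 13 in WT ileum against 15 and 8 in WT colon for Trdc. The receptor list as a whole had 1 gene up and 1 down of 11 tested, with a median of −0.58. Signalling genes had 4 up and 1 down of 16, including Ptpn22 (2.90), Fyb (2.14), Vav1 (1.81) and Rasgrp1 (−1.13). Cytotoxic genes had 3 up and 3 down of 13, including Cd244a (1.63) and Klrk1 (−1.64). Homing genes had 4 up and 2 down of 20, including Gpr55 (3.27), the small intestinal homing receptor Ccr9 (2.32), P2rx7 (−2.10) and Cd69 (−1.53). Lymphocyte genes thus did not shift in a single direction between the tissues, and neither did genes at large, which were called as often or more often.

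Ligands made by the epithelium also differed, with 8 up and 3 down of 16, where 47.3% of all genes were called. The chemokine gene Ccl25, whose product binds CCR9, rose in ileum by 4.44 (adjusted p 1.7e-08). Butyrophilin-like genes, which shape gamma delta lymphocytes, rose as well, Btnl2 by 3.91, Btnl6 by 1.83 and Btnl1 by 1.75. Cd1d1 fell by 2.30 and Il18 by 2.26. CCR9 and its ligand thus were both higher in ileum at the RNA level. All 18 tuft genes rose in ileum, with a median of 2.52. Pan-leukocyte genes had 3 up and 1 down of 10, led by Rac2 (2.50), and epithelial markers 4 up of 10, led by Vil1 (1.82). Stromal genes fell in 4 of 5 tested, with Col3a1 at −2.39. Among plasma cell genes, Igha (1.93) and Jchain (2.08) rose, and among macrophage genes Adgre1 (4.21) and Itgax (1.55) rose and Cd14 (−2.23) fell.

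Between tissues of DDX5KO mice, all 9 members tested had a positive log2 fold change of ileum over colon, with a median of 2.28. In replicate 2 alone, Lck and Cd7 were lower in ileum, at log2 ratios of −0.75 and −0.20. The edgeR test called 4501 of 14816 genes (30.4%) and 5 of 9 members. Both ileum libraries lay above both colon libraries in 7 members and in 31.3% of all genes. Ptprc rose by 2.45 (95% interval 1.80 to 3.10, adjusted p 0.00203, range up to 0.00460). Gzma rose by 3.61 (1.09 to 6.13, adjusted p 0.0456, range up to 0.0484) and Cd8a by 2.80 (adjusted p 0.0381, range up to 0.0400). Cd3e rose by 2.28 (adjusted p 0.0352, range up to 0.210) and Itgae by 1.31 (adjusted p 0.0498, range up to 0.229). Lck, which was lower in ileum in WT, was at 0.30 here. Without DDX5KO colon 1, Gzma (3.00), Cd8a (2.34) and Ptprc (1.97) kept an adjusted p below 0.05, and Cd3e and Itgae did not. Without DDX5KO ileum 1, only Ptprc kept it, with Gzma at an adjusted p of 0.130 and Cd8a at 0.140. Leaving out the repeat-like genes gave Itgae an adjusted p of 0.0534.

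Lists in DDX5KO mice are set beside all genes, of which 2413 of 14816 rose in ileum and 2088 fell. Signalling genes rose in ileum in 7 of 11 tested (median 1.89), cytotoxic genes in 4 of 7 (1.59) and homing genes in 6 of 12 (1.23), with 1 homing gene, P2rx7 (−1.37), falling. Skap1 (3.24), Ccl5 (2.64) and Ccr9 (4.38) were among them. Only 2 receptor genes had enough counts, Tcrg-C2 (1.40) and Trbc2 (0.75), and 0 were called by edgeR. Pan-leukocyte genes rose in 3 of 7 (median 1.51), tuft genes in 17 of 18 (2.85), ligands in 6 of 16 with 3 falling (0.39) and epithelium in 3 of 10 (0.41). These medians rest on other genes than those of WT mice. Over genes tested in both genotypes, the medians in WT and DDX5KO were 0.46 and 1.89 for signalling, −0.16 and 1.59 for cytotoxic, 0.21 and 1.23 for homing and 0.43 and 0.39 for ligand genes. Without DDX5KO colon 1 those of DDX5KO were 1.48, 1.30, 1.08 and 0.22. These genes also had to pass the filter in DDX5KO mice, which genes with few counts can do by being high in ileum. This can raise the DDX5KO medians.

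Whether the tissue difference varied with genotype was tested by their interaction, for which edgeR called 1 of 16178 genes (0.00618%) and 0 of 10 members. It gave 1030 genes at an unadjusted p below 0.05, and DESeq2 called 35 genes and 0 members. All 10 members had a positive coefficient, which means a higher ratio of ileum to colon in DDX5KO, with a median of 1.51 against −0.01 for all genes. At an unadjusted p below 0.05 there were 3 members, Cd8b1 (4.53), Cd8a (2.54) and Ptprc (1.00), and the lowest adjusted p was 0.544 for Cd8b1. With no filter on low counts, 6 members had an adjusted p below 0.05, so the adjusted p of Cd8a ranged from 3.7e-06 to 1.00. Median coefficients were 2.25 for receptor genes, 1.61 for signalling, 1.25 for cytotoxic, 1.16 for homing and 1.35 for pan-leukocyte genes. For ligands, tuft genes and epithelium they were 0.02, 0.29 and −0.09. Without DDX5KO colon 1 they were 1.51 for receptor genes, 1.03 for signalling, 0.50 for cytotoxic, 0.77 for homing and 0.88 for pan-leukocyte genes, and 0.97 for members. Macrophage (0.86), stromal (0.82) and mast cell genes (0.45) had positive medians too, while plasma cell (−1.45), neutrophil (−1.32) and innate lymphoid genes (−0.23) had negative ones, each over 2 or 3 genes. Genes with few counts pass the filter through the groups where they are high, which can shift such medians, and its effect here was not tested. Among genes tested, the direction was shared by lymphocyte lists but not confined to them. The evidence for it in any single gene depended on how low counts were treated.

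Cd8b1 is the partner of Cd8a in the heterodimer of conventional cytotoxic T cells, while many intraepithelial T cells carry Cd8a alone. Its share of the counts of both genes was 12.9% over all libraries (56 of 434, Wilson 95% interval 10.1 to 16.4%). By group it was 7.43% in WT ileum (4.20 to 12.8%), 18.3% in DDX5KO ileum (12.3 to 26.3%), 14.7% in WT colon (9.81 to 21.4%) and 10.7% in DDX5KO colon (3.71 to 27.2%). All intervals overlapped, but that of WT ileum overlapped little with that of DDX5KO ileum and only in part with that of WT colon. Unfiltered, the log2 fold change of Cd8b1 in DDX5KO over WT was −2.63 in colon (adjusted p 0.557) and 1.94 in ileum (adjusted p 0.443). Neither passed. Between tissues of DDX5KO mice it rose in ileum by 3.48 in the same unfiltered fit (adjusted p 0.0244, range 0.00812 to 0.155, the upper end from DESeq2), and without DDX5KO colon 1 the adjusted p was 0.115. Between WT tissues it was at −1.01 and was not called (adjusted p 0.428). Transcripts per cell type could not be split further at these counts.

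The balance of granzymes to other T cell genes also varied. Gzma and Gzmb made up 67.2% of the counts of the 9 members without Ptprc in WT ileum 1 and 66.4% in DDX5KO ileum 1. In replicate 2 of the ileum it was 60.0% in WT and 48.9% in DDX5KO. In colon this share was 41.9% and 45.5% in WT 1 and 2, and 9.64% (Wilson 95% interval 4.97 to 17.9%) and 33.8% in DDX5KO 1 and 2. Within the pair, Gzma made up 63.4% and 63.9% in WT colon and 62.5% and 55.6% in DDX5KO colon. In DDX5KO colon 1 the granzyme share was thus below that of every other library, while its 8 granzyme counts (Wilson 95% interval of the Gzma share 30.6 to 86.3%) are too few to tell the balance within the pair.

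Genes that followed the members most closely over the 8 libraries were sought among 13558 genes. By the mean of the members, Fam20b (r = 0.976), Coro1a (0.972), Acap1 (0.971), Hic1 (0.967) and Nckap1l (0.966) came first, then Ikzf1 (0.965), Nin (0.962), B2m (0.962), Psmb8 (0.958) and Tap1 (0.957). After the mean of each tissue was removed, the closest were Cpne8 (0.987), Hcls1 (0.977), Rnase4 (0.970), Coro1a (0.969) and H2-T22 (0.969), then H2-T23 (0.968), B2m (0.967), Arl2 (0.966), Samhd1 (0.964) and Hic1 (0.963). Coro1a, Nckap1l, Ikzf1, Hcls1 and Acap1 are expressed in leukocytes. B2m, Tap1, Psmb8, H2-T22 and H2-T23 act in antigen presentation by class I molecules, and epithelial cells express them too. With 8 libraries and so many genes, high values of r are found by selection, and the order is a description.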

How the data were processed

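RNA of the EDTA fractions was sequenced by the authors as ribodepleted stranded libraries. Per the labels, the authors aligned reads to mm10 with STAR 2.6.1a, and the counts of each gene were made by the authors with featureCounts and deposited as 1 table for each tissue. The 8 columns of normalized values, and the columns of fold changes and p-values from the authors' own DESeq2 1.18.1 comparison, were not used. A gene listed in only 1 table was given 0 counts in the other, and symbols turned into dates were restored (26 in ileum, 25 in colon).

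Libraries held 11571061 to 22984283 counts, and 1 count equalled 0.0440 to 0.107 CPM. Levels are CPM with TMM scaling over all 8 libraries (16178 genes kept), divided by exon length in kilobases where genes are compared. Tests used edgeR 4.0.16 in R 4.3.3, with TMM, filterByExpr at a minimum count of 10, the quasi-likelihood test, the replicate number as a block and Benjamini-Hochberg adjustment over all genes tested. Each of the 5 comparisons fitted only its own libraries, and the interaction had mice as blocks. Between tissues the number marks the mouse, per the column names of the supplementary tables, and deviations of libraries from 1 mouse correlated at r = 0.168 in WT and 0.185 in DDX5KO. Between genotypes the study describes 2 pairs of cohoused littermates and a harvest covariate, but not which mice made up a pair or shared a harvest, so the number is only taken to mark them. Steps were tested on simulated data.

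Alternatives were no block, DESeq2 1.42.0, RLE scaling, no filter, all libraries in a single fit, leaving out the 3 repeat-like genes, the criterion of the study, and leaving out each library. Intervals of ratios of counts are exact and those of shares are Wilson intervals. Genes are named by rule. These are the 10 members, markers of other cell types and the 10 genes most alike to the mean of the members. From each list come up to 6 genes with the smallest p among those called, or up to 4 by level where none was. Named outside this rule were some genes that were not called, among them Cd247, Zap70, Ccl5 and Cxcr6 in colon, which met the lower criterion. There were 14 lists with 171 genes (T cell receptor, receptor signalling, cytotoxic, homing, epithelial ligands, pan-leukocyte, B cell, plasma cell, macrophage, neutrophil, mast cell, innate lymphoid, stroma, epithelium). The members and lists were chosen with earlier results of these data known. The list of 18 tuft cell genes, the alternatives that use it or leave out Ptprc, the list medians with a library left out, without repeat-like genes or over genes picked otherwise, and the criterion with p from DESeq2, were chosen after values of this report had been seen. Positions come from GENCODE vM21 on GRCm38.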

Additional observations from a re-analysis of the deposited data

How the results depend on the processing

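There were 2 mice a group and few counts per member, and each interval of a fold change rests on at most 8 libraries. The strand setting of the counts is not stated. The study describes pairs of cohoused littermates, but the labels do not say that replicate numbers mark them, and deviations of same-numbered libraries correlated at r = 0.205 in ileum and 0.0152 in colon.

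Genes called in colon moved from 0 to 5 with no replicate block, 118 with DESeq2, 16 with all 8 libraries in a single fit and 1031 by the criterion of the study with p from edgeR (322 lower and 208 higher with p from DESeq2), and ranged from 0 to 2506 with a library left out. Members called moved from 0 to 1 with DESeq2 and 6 by the criterion, and ranged from 0 to 9 with a library left out. In ileum 98 genes became 1 with no replicate block, 28 with DESeq2, 423 with no filter, 20 without repeat-like genes, 1 with all 8 libraries and 1034 by the criterion with p from edgeR (170 lower and 183 higher with p from DESeq2), and 1 to 23 with a library left out. Between WT tissues 7391 genes became 4483 with DESeq2 and 4351 to 7286 with a library left out, and 4 members became 2 with DESeq2, 1 with all 8 libraries and 2 to 7 with a library left out. Between DDX5KO tissues 4501 genes became 2786 with DESeq2 and 2444 to 3201 with a library left out, and 5 members became 3 with no replicate block and 1 to 6 with a library left out. For the interaction 1 gene became 2 with no replicate block, 35 with DESeq2, 318 with no filter and 0 to 30 with a library left out, and 0 members became 6 with no filter. Fits with a library left out hold fewer samples and assume that a lone sample varies like the other group. The causes of the other changes were not tested.

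Some log2 fold changes turned sign, among them that of Gzmb between WT tissues, which was called (adjusted p 0.0370, range up to 0.503). In ileum Cd3e (0.00) turned to −0.0453 with no replicate block, −0.0333 with no filter and −0.0205 with all 8 libraries, and Cd7 (−0.03) to 0.0565 and 0.0303 with no replicate block and all 8 libraries. With a library left out, DDX5KO over WT in ileum ranged from −0.48 to 0.74 for Cd3e, −0.41 to 0.54 for Cd3g, −0.62 to 1.00 for Cd8a, −1.13 to 0.67 for Cd7, −1.52 to 0.55 for Gzma, −1.35 to 1.34 for Gzmb, −0.80 to 0.35 for Itgae and −0.28 to 0.71 for Lck. Ileum over colon in WT ranged from −0.20 to 0.54 for Cd3g, −0.37 to 0.97 for Cd8a, −0.37 to 0.0509 for Cd7, −0.18 to 1.43 for Gzmb and −0.13 to 0.91 for Itgae, and in DDX5KO from −0.41 to 1.20 for Lck.

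The summed CPM of the members in WT over DDX5KO ileum, 1.15, ranged from 0.894 to 1.62 with a library left out. In WT ileum over WT colon the sum, 2.06, became 1.51 per epithelial counts and 1.62 without Ptprc, and ranged from 1.78 to 2.43 with a library left out. Ptprc in WT over DDX5KO ileum, 1.35, became 0.804 per tuft counts, and in WT ileum over WT colon, 2.71, it became 0.469. With no replicate block Gzmb lost its call between WT tissues (edgeR adjusted p 0.159), as did Cd3e (0.0750) and Itgae (0.0543) between DDX5KO tissues, and no other member changed its call. By the criterion of the study with p from DESeq2, 4 members were lower in colon instead of 6. In ileum 5 tuft genes and Vav1 lost their calls in edgeR without the repeat-like genes. The log2 fold change of Vav1 hardly moved (−0.79 and −0.78), nor did the tuft median (−0.68 and −0.67).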

Other observations

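Mast cell proteases marked the same DDX5KO mouse in each tissue. Mcpt1 had 105 counts in DDX5KO colon 1 and 114 in DDX5KO ileum 1, and Mcpt2 had 46 and 39. Summed mast cell markers were 15 CPM in DDX5KO ileum 1 against 4.39 in DDX5KO ileum 2, and 2.03 and 5.34 in WT ileum. This was the mouse whose colon held the fewest counts of the members, while its ileum held 121 CPM of them, the highest sum of all libraries.

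Il1rl1, which encodes the receptor of IL-33, was an ileal transcript, with 1121 and 1068 counts in WT ileum and 1294 and 886 in DDX5KO ileum. Ly6g showed the reverse, with 0 counts in DDX5KO ileum against 1381 in DDX5KO colon, at least 230.0-fold lower. Other neutrophil genes had few counts in either tissue.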
